A study of Mus musculus with 36 samples.

Results

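Synucleins and death-associated protein kinases were measured here in brown adipocytes formed in culture from pre-adipocytes. The 5 genes considered were the synuclein genes Sncb and Sncg and the kinase genes Dapk1, Dapk2 and Dapk3, out of 55536 genes counted in 36 RNA sequencing libraries. They were chosen by name, by matching gene identifiers to symbols in GENCODE M21. Sncg and Dapk1 were chosen by their own values in these libraries, since both were far higher at day 6 than at day 2, and Sncb, Dapk2 and Dapk3 were taken as their paralogues. Changes between days 2 and 6 are therefore given for every member as a description, without a test, and the same holds for the changes of Sncg and Dapk1 from day 0 to days 2 and 6, which share values with that choice.

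The libraries came from 2 clones (48 and 66) of a mouse brown pre-adipocyte line in which Rxra, the gene of the nuclear receptor RXRα, had been disrupted with Cas9. All libraries therefore shared the Rxra-/- background. Each clone had been given back Rxra by a pBabe Hygro retrovirus and hygromycin selection, either the wild-type form (RxraWT, labelled WT) or a form with alanine in place of a serine (RxraSA, labelled S22A). Cells were confluent at day 0 in medium with insulin and triiodothyronine, received dexamethasone, isobutylmethylxanthine and indomethacin as well for 2 days, and were then kept in the first medium until day 6. Each clone, genotype and day had 3 libraries, which gave 6 per genotype and day and 12 per day. Each cell line descends from 1 knockout clone, and clone 48 was sequenced in library pool 1 and clone 66 in pool 2, so clone and pool cannot be told apart. The deposited design calls the 3 replicates technical, whereas the methods speak of independent replicates, and p-values measure the spread between these libraries, which may be technical.

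Synucleins are small proteins that bind curved lipid membranes and are best known from nerve terminals, where members of the family assist the SNARE proteins that fuse vesicles. Beta-synuclein (Sncb) is a brain protein, whereas gamma-synuclein (Sncg) is found in peripheral neurons and also in adipocytes. Death-associated protein kinases are serine/threonine kinases that phosphorylate myosin light chains and have been linked to membrane blebbing, cell death and autophagy. DAPK1 is a large protein with a kinase domain, a calmodulin-binding segment that holds the kinase inactive, ankyrin repeats and a death domain. DAPK2 is a small relative that keeps the calmodulin-binding segment, and DAPK3, also called ZIP kinase, lacks it and carries a leucine zipper.

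Total counts lay between 11351078 and 24349263 per library (median 18338726), and 16723 genes passed the filter on low counts. Mature adipocyte markers rose with time: all 12 were higher at day 6 than at day 0, among them Retn (log2 fold change 12.25) and Car3 (11.7). Of the 6 tested pre-adipocyte and fibroblast markers 5 fell, with Ly6a (-5.10) and Col1a2 (-2.85) the furthest. All 7 tested brown adipocyte markers were higher at day 6, including Cox8b (8.55) and Ebf2 (1.23), but Ucp1, the defining uncoupling protein, had only 40 counts in total over the 12 libraries of day 6. Rxra itself was counted in every library (1851 to 11489 counts), which does not tell the alleles apart, and RxraSA differed from RxraWT by -0.07, -0.03 and 0.03 on the log2 scale at days 0, 2 and 6 (adjusted p = 1 each, edgeR). In these bulk libraries fewer cells of a type and less RNA per cell cannot be told apart.

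The members fell into 3 kinds of gene. Sncg lies on the minus strand at chr14:34370274-34374789 (GRCm38) with 852 bases of exon, and Dapk1 spans the much longer plus-strand interval chr13:60601947-60763191 with 9012 bases of exon. Dapk3 lies at chr10:81183005-81193197 on the plus strand with 2532 bases of exon. Sncb (chr13:54758860-54766595, minus strand) and Dapk2 (chr9:66158223-66272242, plus strand) were the members that failed the filter, and Sncb shares chromosome 13 with Dapk1 without adjoining it. The 3 members that passed were Sncg, Dapk1 and Dapk3, and Dapk1 passed only through its day 6 libraries.

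Sequence before a RefSeq start site is shown for these 3 genes because their levels followed different courses over the same days. Promoter windows of 300 bases (250 before and 50 after a RefSeq start site, GRCm38.p6) were found for all 5 members. Dapk3 had 3 windows, and the stretch of 1 of them is printed. The stretch of each window outside every GENCODE M21 exon of the gene is printed 5′ to 3′ on the gene's strand, with CpG dinucleotides in capitals. The Sncg stretch is chr14:34374790-34374919 and ends 121 bases before the RefSeq start site, the Dapk1 stretch is chr13:60602111-60602210 and ends 1 base before it, and the Dapk3 stretch is chr10:81182757-81183004 and ends 3 bases before it. The Dapk1 stretch lies inside the annotated span of its gene, between exons, whereas the Sncg and Dapk3 stretches lie outside theirs. The Dapk3 stretch lies within the annotated span of 4930442H23Rik, a gene on the opposite strand.
Sncg: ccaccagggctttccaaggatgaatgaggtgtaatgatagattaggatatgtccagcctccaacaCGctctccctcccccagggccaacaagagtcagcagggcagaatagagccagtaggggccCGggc
Dapk1: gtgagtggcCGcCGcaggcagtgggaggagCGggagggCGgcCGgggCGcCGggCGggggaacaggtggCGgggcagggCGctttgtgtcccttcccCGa
Dapk3: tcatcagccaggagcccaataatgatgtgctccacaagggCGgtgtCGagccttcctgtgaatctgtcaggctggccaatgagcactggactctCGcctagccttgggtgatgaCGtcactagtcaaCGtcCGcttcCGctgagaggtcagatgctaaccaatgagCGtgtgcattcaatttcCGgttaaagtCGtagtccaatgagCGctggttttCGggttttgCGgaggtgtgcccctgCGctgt

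The stretches differed in CpG content, with 2 CpG in the 130 bases of Sncg, 11 in the 100 bases of Dapk1 and 14 in the 248 bases of Dapk3. Over the whole windows the GC content was 61.3% for Sncg and 77.7% for Dapk1, against a median of 53% over 32544 mouse promoter windows. The ratio of observed to expected CpG was 0.323 for Sncg, under the median of 0.387 over all windows, and 0.893 for Dapk1, which lay at percentile 86.7. The printed Dapk3 window had a ratio of 0.856, the Dapk3 window chr10:81183013-81183312 had 0.895 and the Dapk3 window chr10:81183668-81183967 had 0.3. The windows of Dapk2 and Sncb had 0.826 and 0.532. A CpG-rich window was thus found in the undetected Dapk2 as well as in Dapk1 and Dapk3.

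Motif letters were searched on both strands, and a match is a description of letters only. The GC box GGGCGG, present in 35.9% of all windows, began 65 and 49 bases before the Dapk1 start site and 78 bases before that of Sncg. The printed Dapk3 window held GGGCGG once, CCAAT (37.4% of windows) 4 times, the nuclear receptor hexamer AGGTCA (16.2%) once and the cyclic AMP response element TGACGTCA (1.8%) once, 139 bases before the start site. TGACG, a part of that element (20.9% of windows), began 3 bases before the Sncg start site and overlaps the full element in Dapk3. AGGTCA, TGACGTCA and a tandem repeat of AGGTCA with 1 base between were not in the Sncg and Dapk1 windows. AGGTCA and TGACGTCA were also absent from the other Dapk3 windows. Of these, chr10:81183013-81183312 held GGGCGG 2 times and CCAAT once, and chr10:81183668-81183967 held none of the letters searched. TATAAA (13.6%), CACGTG (7.17%), TTGCNNAA (10.8%) and AGAACA (18.9%) were in none of the 7 member windows, and the tandem repeat was in 0.0399% of all windows.

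Sncg, which encodes gamma-synuclein, was present in pre-adipocytes, nearly absent at day 2 and abundant at day 6. Its counts in day 0 libraries were 153 to 325 in RxraWT (median 228) and 108 to 218 in RxraSA (median 155.5). At day 2 the same genotypes had 2 to 14 (median 6) and 1 to 11 (median 7.5), and day 6 brought 2064 to 3210 (median 2550) and 1994 to 3376 (median 2476). The 3 days did not overlap in any library of either genotype.

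Scaled to library size with TMM (as CPM), Sncg averaged 9.98 before differentiation, 0.401 after 2 days and 140.9 by day 6. Between days 0 and 2 it fell by 4.62 ± 0.22 (SE) on the log2 scale, in the fit of edgeR's quasi-likelihood model over all genes. In that comparison 37.5% of all tested genes were lower at day 2 and 35.8% higher (adjusted p under the threshold of 0.05, Benjamini-Hochberg adjustment over all genes tested), so that such changes were common. From day 2 to day 6 its level rose by 8.46 ± 0.22 (SE) on the log2 scale, and day 6 stood 3.83 ± 0.16 above day 0. These 3 changes are descriptions.

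**Figure D1:**
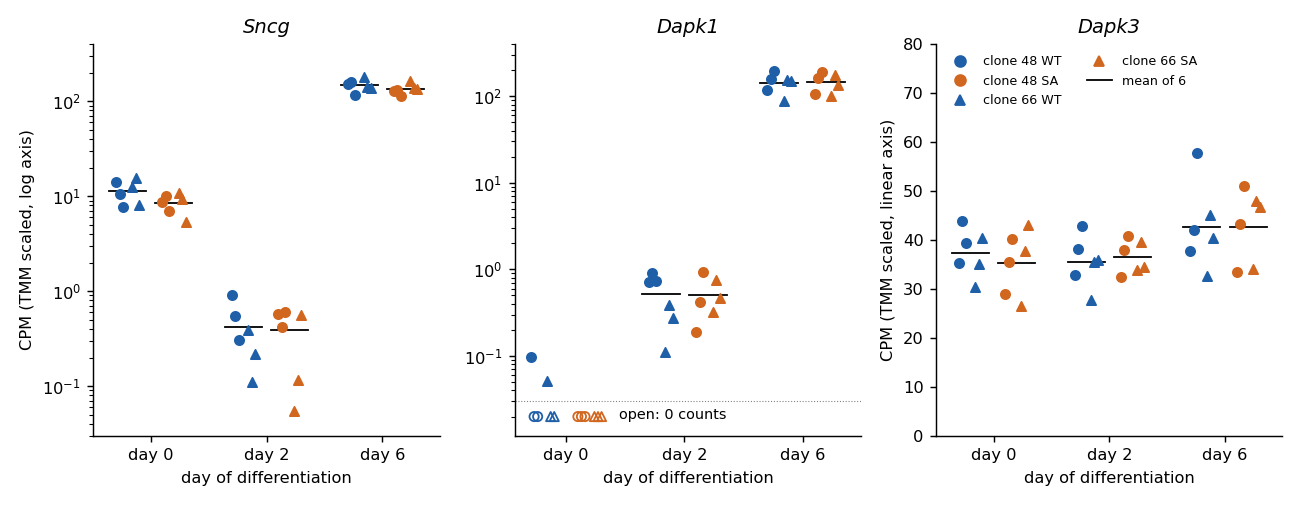
CPM of Sncg, Dapk1 and Dapk3 in each of the 36 libraries by day (log axes for Sncg and Dapk1, linear axis from 0 for Dapk3). Circles are clone 48, triangles clone 66, blue RxraWT, orange RxraSA, open symbols libraries with 0 counts and black lines means of 6 libraries (not drawn for Dapk1 at day 0). Sncg dips at day 2 to at most 0.909 CPM, Dapk1 climbs from 10 libraries at 0 to at least 88.1 CPM, and Dapk3 stays between 26.5 and 57.7 CPM.

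Dapk1, the calmodulin-regulated kinase, had almost no reads before differentiation. At day 0 it had 2 counts in 1 library, 1 count in another and 0 in the other 10, and all 6 RxraSA libraries were at 0. Its counts reached 2 to 13 (median 9) in RxraWT and 3 to 17 (median 7.5) in RxraSA by day 2. By day 6 RxraWT had 1563 to 3415 (median 2718) and RxraSA 1915 to 3359 (median 2817). In CPM the highest library of day 0 stood at 0.0987 and the lowest of day 2 at 0.112. Both of these libraries had 2 counts, so that order rests on the scaling. Day 6 lay above both earlier days in every library.

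Summed over libraries, Dapk1 had 3 counts at day 0 and 104 at day 2, a ratio of 40.3 per scaled read with an exact 95% counting interval from 13.4 to 198. In RxraWT the ratio was 20.45 (interval 6.61 to 102), and in RxraSA day 2 was at least 19.8-fold higher than day 0, taking 3 counts over the group as the limit for 0. Day 6 had 31484 counts, a ratio of 11330 to day 0 (interval 3875 to 54920), and in RxraSA it was at least 5421-fold higher. These intervals cover counting error only, and all of these values are descriptions, since Dapk1 was chosen for its course and entered the fit only through its day 6 libraries. From day 2 to day 6 the level rose by 8.12 ± 0.22 (SE) on the log2 scale, close to the 8.46 of Sncg, although from day 0 to day 2 the pair had moved in opposite directions.

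Dapk3, the relative without the calmodulin-binding segment, was expressed at a similar level on every day. Its counts were 358 to 1053 before differentiation (median 729.5). Libraries of day 2 had 496 to 742 counts (median 634.5) and those of day 6 had 580 to 1047 (median 728.5), and the days overlapped widely. Day 2 differed from day 0 by -0.01 ± 0.09 (SE) on the log2 scale with an interval from -0.20 to 0.17 (adjusted p = 0.891, edgeR). Day 6 was higher than day 0 by 0.23 ± 0.09, an interval of 0.04 to 0.42 or 1.17-fold (adjusted p = 0.0267, edgeR), in a comparison where 32.9% of tested genes were higher and 35.4% lower. Dapk3 was the only member tested in that comparison.

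The call of this small rise of Dapk3 depended on scaling and on single libraries. When only the library size was used for scaling, its change was 0.04 (adjusted p = 0.708) between days 0 and 6 and -0.28 (adjusted p = 0.00506) between days 0 and 2, while the median of all genes moved from -0.02 to -0.27 between days 0 and 2 and from -0.03 to -0.22 between days 0 and 6, so that against the median Dapk3 was near 0 at day 2 under both scalings and at 0.26 at day 6 under both. The call was also lost without replicate 3 of clone 48 (0.19, adjusted p = 0.0838), without replicate 2 of clone 66 (0.22, 0.0838) and without the RxraSA day 0 library of clone 48, replicate 1 (0.20, 0.0548), against 0.23 with all libraries.

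Sncb and Dapk2, the paralogues of Sncg and Dapk1, were not detectable at this depth. Sncb had 4 counts in all, of which 3 fell on day 0 and 1 on day 6, and 32 of 36 libraries were at 0. Dapk2 had 9 counts, of which 7 fell on day 0 and 2 on day 6, and 28 libraries were at 0. At day 6 the exact upper 95% counting limit, pooled over 12 libraries, was 0.0254 CPM for Sncb and 0.0329 CPM for Dapk2. By the same limit the 0 counts of each at day 2 allow up to 0.0181 CPM. Fitted without the filter, where 41.6% of 36853 genes were called between days 0 and 2, Dapk2 was called lower at day 2 (adjusted p = 0.0242, edgeR) and Sncb was not (0.16). That call rests on 7 counts in 12 libraries against 0, and between days 0 and 6 neither was called (0.141 for Dapk2 and 0.405 for Sncb).

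Compared per length, the order of the members changed with the day. At day 0 Dapk3 (14.4 ± 2.17 CPM per kb of exon, SD, n = 12) and Sncg (11.7 ± 3.43) overlapped, and the other members had means of at most 0.00816 CPM per kb. At day 2 Dapk3 stood at 14.2 ± 1.64, far above Sncg (0.471 ± 0.297), which in turn exceeded Dapk1 (0.0574 ± 0.0311) in mean while their libraries overlapped. At day 6 Sncg led with 165.4 ± 22.8, and Dapk3 (16.9 ± 3.00) and Dapk1 (16.0 ± 3.88) overlapped.

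The ratio of Sncg to Dapk1 per length at day 6 ran from 6.36 to 21.7 over the 12 libraries, with a median of 10.1. Among the 3 kinase genes Dapk1 made up 0.341% of the summed level per length at day 2 (median) and 48.7% at day 6 (range 43.1% to 51.6%), so that Dapk3 made up nearly all of the sum at day 2. Among 36853 genes with at least 1 count, Sncg stood per length at a median percentile of 88.0, 61.6 and 99.3 on days 0, 2 and 6, and on day 6 Dapk1 stood at 91.1 and Dapk3 at 91.2.

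**Figure D2:**
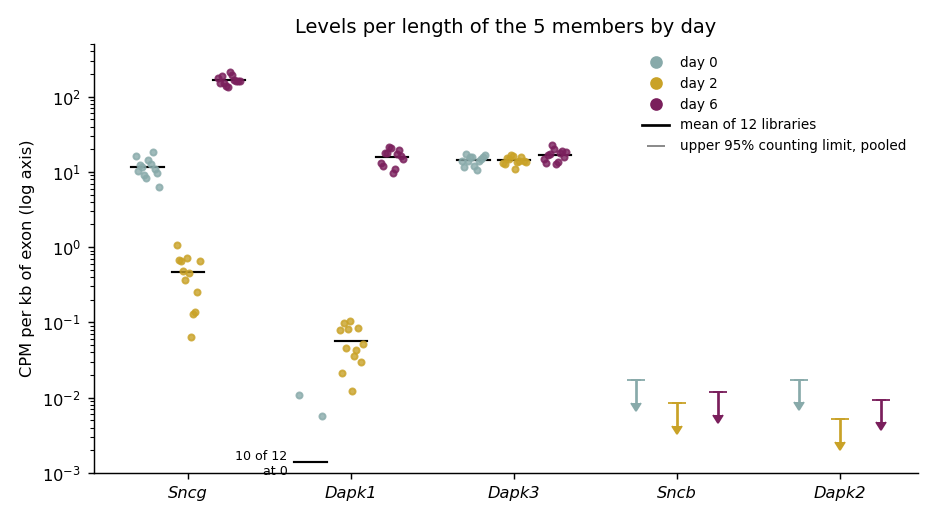
CPM per kb of exon (log axis) of the 5 members at days 0, 2 and 6, with 1 point per library with at least 1 count and black lines for means of 12 libraries. Bars with arrows mark the upper 95% counting limit of Sncb and Dapk2 pooled over 12 libraries, at most 0.0173 CPM per kb, and at day 6 Sncg (mean 165.4) lies above Dapk1 (16.0) and Dapk3 (16.9).

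Whether the S22A form of RXRα altered these genes was asked on each day by comparing RxraSA with RxraWT. No member was called as different: of 2 members with a usable value at day 0 and 3 at days 2 and 6, 0 were called and 0 had an unadjusted p under 0.05. Over all genes edgeR's quasi-likelihood test called 0% on each day, with 139, 162 and 125 of 16723 genes at an unadjusted p under 0.05, and DESeq2 called 0 as well. For Sncg at day 0 the difference was -0.42 ± 0.22 (SE) on the log2 scale, with an interval from -0.86 to 0.02 (adjusted p = 1, unadjusted p = 0.0617, edgeR). The genotypes overlapped, at 7.78 to 15.5 CPM in RxraWT and 5.39 to 10.9 CPM in RxraSA, yet RxraSA was the lower of all 6 same-numbered pairs of libraries.

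At day 6 Sncg was again lower in RxraSA in 6 of 6 pairs, by a fitted -0.13 ± 0.20 with an interval from -0.55 to 0.29 (adjusted p = 1, edgeR). With same-numbered libraries as a block within the day, the differences were -0.40 (adjusted p = 0.959) at day 0 and -0.12 (adjusted p = 1) at day 6, so that neither was called. At day 2, where Sncg had at most 14 counts, 3 pairs were higher and 3 lower, and the interval ran from -0.93 to 0.82, or from 0.523-fold to 1.76-fold. For Dapk1 the interval was -0.76 to 0.88 at day 2 and -0.41 to 0.44 at day 6, with RxraSA higher in 4 and 3 of 6 pairs. Dapk3 had the narrowest intervals, -0.34 to 0.19, -0.22 to 0.31 and -0.26 to 0.27 at days 0, 2 and 6. All of these intervals come from the fit without that block, so they include spread shared by same-numbered libraries.

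No member tested was called for a change over days that differed by genotype (0 called for the intervals of days 0 to 2, 0 to 6 and 2 to 6). Over all genes 0% were called, with 144, 128 and 153 at an unadjusted p under 0.05 and 0 called by DESeq2. Between days 2 and 6 the difference between genotypes in the rise was -0.07 ± 0.49 (SE) on the log2 scale for Sncg, against a rise of 8.46, and -0.04 ± 0.45 for Dapk1, against a rise of 8.12.

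The clones, which stand in different pools, differed in 23.7% of genes before differentiation, 30% on day 2 and 26.2% on day 6, and 1 member was among them. At day 2 Sncg had 5 to 14 counts (median 8.5) in clone 48 and 1 to 11 counts (median 3) in clone 66. Of the 6 libraries of clone 66, 4 lay under the lowest of clone 48 in CPM, but the clones overlapped. Clone 66 was lower by -1.17 ± 0.41 (SE) on the log2 scale, or 2.25-fold, with an interval from -2.02 to -0.32 (adjusted p = 0.0322, edgeR). This rested on few counts: the call was lost without replicate 1 (-0.92, adjusted p = 0.18) or replicate 2 (-1.26, 0.068) of clone 48 and without replicate 1 (-1.20, 0.0566) or replicate 2 (-0.84, 0.176) of clone 66, and with day 2 libraries alone Sncg failed the filter. Without replicate 3 of clone 66 the difference was -1.89 and was called, and clone 66 was the lower in every omission.

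Dapk1 at day 2 had 3 to 17 counts in clone 48 and 2 to 13 in clone 66, a difference of -0.82 ± 0.41 (SE) on the log2 scale (adjusted p = 0.135, edgeR). Without replicate 1 of clone 48 that difference was -1.05 and passed the threshold (adjusted p = 0.0471, edgeR). Over 7 omissions it ran from -1.20 to -0.42 and passed in that 1 alone. Dapk1 passed the filter only through its day 6 libraries, so its comparisons at day 2 rest on few counts. At day 6 the values of Sncg were 113.9 to 158.7 CPM in clone 48 and 135.2 to 180.9 CPM in clone 66, and those of Dapk1 were 106.2 to 193.5 CPM and 88.1 to 175.5 CPM. The differences of 0.17 ± 0.19 for Sncg and -0.22 ± 0.21 for Dapk1 were not called (adjusted p = 0.572 and 0.487, edgeR). Dapk3 differed between clones by -0.06, -0.12 and -0.10 on the log2 scale at days 0, 2 and 6, none of them called.

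The test of whether the clones changed differently over time called no member, against 6.84% of genes for days 0 to 2, 3.85% for days 0 to 6 and 6.18% for days 2 to 6. Sncg came nearest, with a rise between days 2 and 6 that was greater in clone 66 by 1.34 ± 0.46 (SE) on the log2 scale (adjusted p = 0.0833, edgeR). With same-numbered libraries as a block the same difference of 1.34 had an adjusted p of 0.0419, and with DESeq2 it had 0.0308. Without replicate 3 of clone 66 the difference was 2.12 (adjusted p = 0.00583, edgeR), and for days 0 to 2 it was then -2.20 (0.00489). No member was called for an effect of genotype that differed between clones, with 0% of genes called on each day, 283, 214 and 200 at an unadjusted p under 0.05 and 0 called by DESeq2. For Dapk1 at day 2 that difference was 1.52 ± 0.81 (SE, adjusted p = 1, edgeR). Its libraries of that day had at most 17 counts.

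**Figure D3:**
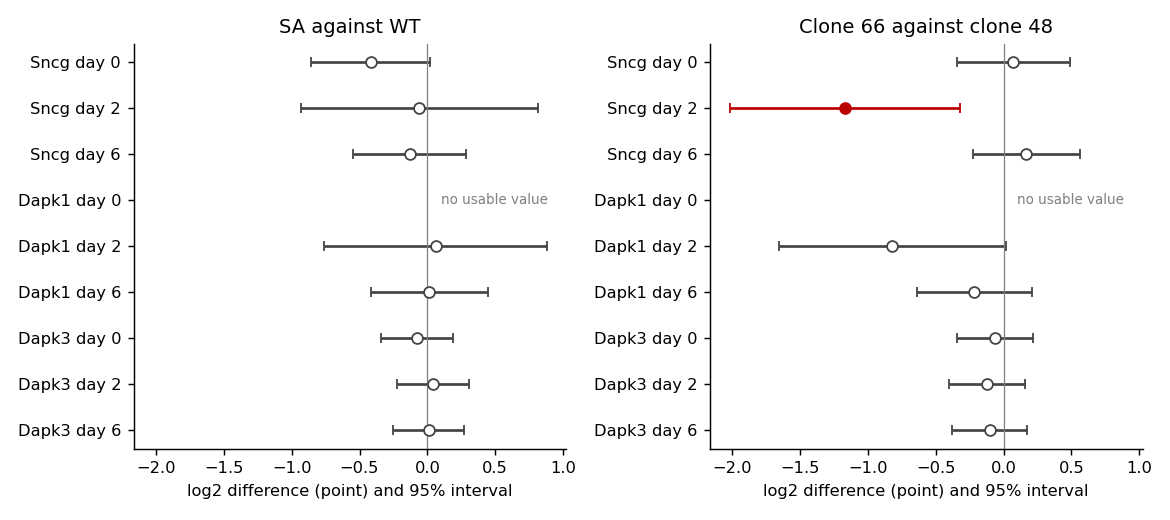
Log2 difference (points) and 95% interval (bars) of RxraSA against RxraWT (left) and of clone 66 against clone 48 (right) for Sncg, Dapk1 and Dapk3 on each day. The filled red point, Sncg at day 2 between clones (-1.17), is the single called value, and Dapk1 at day 0 has no usable value because it had 3 counts in all.

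Values also varied with the replicate number shared by the genotypes of a clone. For Dapk1 at day 6 the clone 48 libraries of RxraWT had 118.2, 159.3 and 193.5 CPM in replicates 1, 2 and 3, and those of RxraSA had 106.2, 161.6 and 189.6 CPM. In clone 66 the values were 88.1, 153.8 and 148.2 CPM in RxraWT and 99.9, 175.5 and 133.7 CPM in RxraSA. In each of the 4 lines replicate 1 was the lowest, and same-numbered libraries of the genotypes differed by at most 0.19 on the log2 scale. Dapk3 at day 6 was also lowest in replicate 1 of each line, whereas Sncg was lowest in replicate 3 of each line.

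Few counts were assigned to genes that overlap the members. Dapk1 holds Gm48582 (0 to 7 counts) and Gm48583 (3 to 20 counts) within its introns, with 0 bases shared with its exons. On the opposite strand, 4930442H23Rik shares 212 exon bases with Dapk3 and had 7 to 25 counts, against at least 358 for Dapk3. The counting did not use the strand, so reads of that stretch cannot be assigned to either gene. No annotated gene overlaps Sncg.

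The genes whose course was most like that of Sncg and Dapk1 were sought among the 9725 genes that averaged log2 CPM 3 or more, by Pearson's r of log2 CPM over the 36 libraries. These values are descriptions, and the libraries share their days and clones. Sncg was most like Lfng (0.978), which encodes a glycosyltransferase acting on Notch, followed by Pyroxd2 (0.971), H2-T22 (0.968), Rhoq (0.963), a small GTPase studied in insulin-stimulated glucose uptake, and Acy3 (0.959), an aminoacylase. Each of these dipped at day 2, though far less than Sncg: Lfng averaged 23.4, 5.12 and 73.8 CPM at days 0, 2 and 6, and Rhoq 197.6, 72.1 and 297 CPM. H2-T22 belongs to a family of similar class I histocompatibility genes, so its counts are uncertain.

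Dapk1 was most like Tshr (0.992), the thyrotropin receptor, Fam162a (0.990), Adrb3 (0.989), the beta-3 adrenergic receptor, Pgam1 (0.985), a glycolytic enzyme, and Vsir (0.985), an immune checkpoint receptor. Tshr averaged 0.176, 0.842 and 92.6 CPM and Adrb3 0.0488, 0.616 and 74.9 CPM at days 0, 2 and 6, which is the stepwise course of Dapk1. Sncg and Dapk1 had a Pearson r of 0.704 with each other, and Dapk1 stood at place 544 among genes ranked by likeness to Sncg. Ranked by Spearman's rho instead, 0 of the 5 genes stayed among the first 5 of either member, and within single clones 2 or 3 of 5 did.

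**Figure D4:**
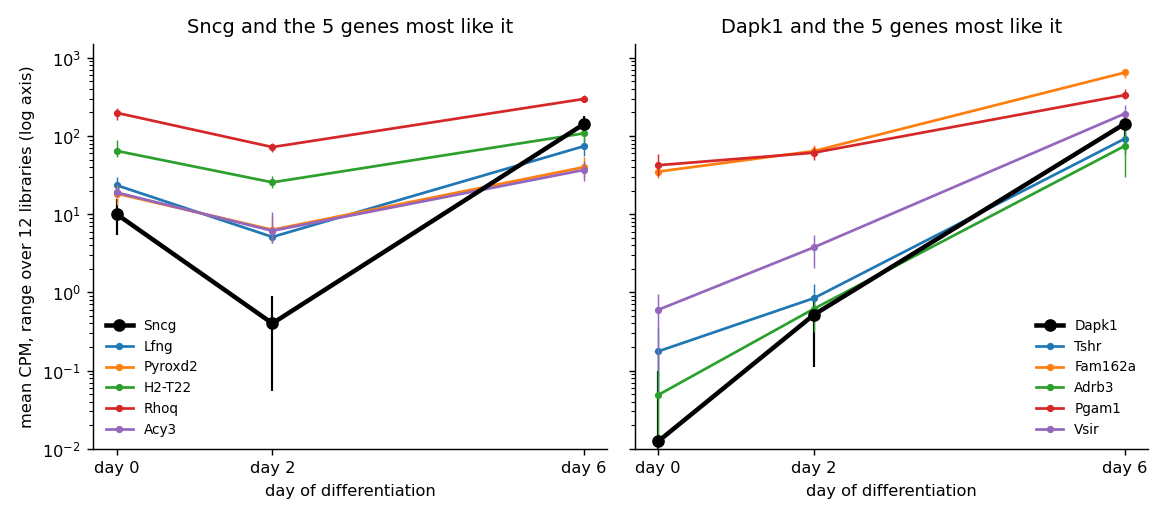
Mean CPM (log axis) at days 0, 2 and 6 of Sncg (left, black) and Dapk1 (right, black) with the 5 genes most like each, vertical lines being the range over 12 libraries (cut at 0.01 CPM where it reaches 0). The left genes all dip at day 2 and the right genes all rise at both steps, and Sncg has the deepest dip, to 0.401 CPM.

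The kinases' known substrates and regulators did not follow a single course. Each count of these lists stands beside the shares over all genes. At day 2 against day 0, 35.8% of genes were higher and 37.5% lower, and at day 6 against day 0, 32.9% and 35.4%. Of 15 genes of the myosin light chain pathway, which DAPK proteins share with other kinases, 1 was higher and 11 lower at day 2 than at day 0, with a median log2 fold change of -0.98 against -0.02 over all genes. At day 6 against day 0, 4 were higher and 8 lower (median -0.85 against -0.03). Myl9, a myosin regulatory light chain, fell by 5.73 (adjusted p = 9.58e-24, edgeR), and Myh10, a non-muscle myosin heavy chain, rose by 1.28 (1.45e-06). Of 14 tested genes for calmodulin and calmodulin-dependent enzymes, 4 were higher and 9 lower at day 2 (median -0.34). At day 6, 3 were higher and 5 lower (median -0.02 against -0.03 over all genes). Camkk1, a kinase that activates other calmodulin-dependent kinases, fell by 2.68 (4.16e-23) by day 6.

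Of 16 regulators and partners of DAPK proteins, 9 were higher and 4 lower at day 2 (median 0.22 against -0.02 over all genes). At day 6, 6 were higher and 4 lower (median 0.11 against -0.03). Pawr, a pro-apoptotic partner of DAPK3, fell by 3.17 (2.04e-23, edgeR), and Atf4, a stress-response transcription factor, rose by 1.06 (1.40e-09). Of 20 autophagy genes 6 were higher and 7 lower at day 2, and 9 higher and 6 lower at day 6. Atg12, the ubiquitin-like conjugation protein, rose by 1.27 (8.52e-20), and Ulk1, the initiating kinase, by 1.07 (8.55e-06). The median of the autophagy genes was -0.05 at day 2 and -0.03 at day 6, near that of all genes.

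For the synucleins' partners, 7 of 17 SNARE genes and their chaperones were higher and 7 lower at day 2, and 6 were higher and 5 lower at day 6 (median -0.02 against -0.03). Stx3, a membrane syntaxin, fell by 1.11 (2.80e-18, edgeR), and Dnajc5, a synaptic vesicle chaperone, rose by 0.56 (5.71e-12). Between days 2 and 6, when Sncg and Dapk1 rose, 6 SNARE genes were higher and 3 lower, 5 autophagy genes were higher and 6 lower, and 8 myosin pathway genes were higher and 0 lower. In the same comparison 2 regulators and partners of DAPK proteins were higher and 8 lower (median -0.21 against 0.01 over all genes), and 6 calmodulin genes were higher and 6 lower. Over all genes 31.9% were higher and 30.1% lower in that comparison.

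**Figure D5:**
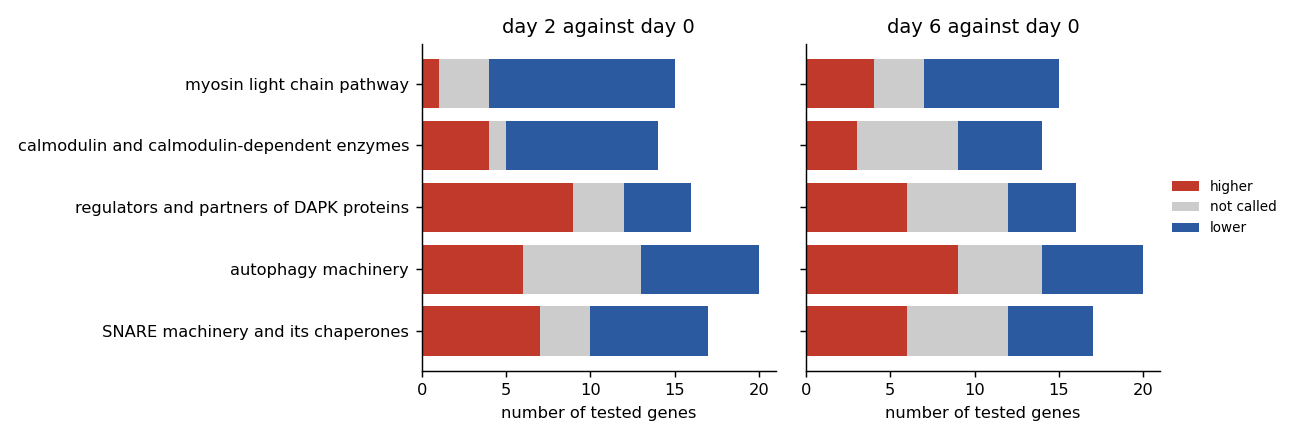
Number of tested genes higher (red), lower (blue) or not called (grey) in 5 pathway lists at day 2 against day 0 (left) and day 6 against day 0 (right). The myosin light chain pathway has the highest count of lower genes, 11 of 15 at day 2, and the autophagy list holds 9 higher and 6 lower at day 6. Over all genes 35.8% were higher and 37.5% lower at day 2, and 32.9% and 35.4% at day 6.

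Neural and other cell types could also express synucleins, and their markers were therefore counted beside Sncg. The summed level of 12 neuron markers was 2.76 to 14.7 CPM before differentiation, 0.332 to 0.966 CPM on day 2 and 0.757 to 2.40 CPM on day 6, and Nefl and Nefm were at 0 in every library. This sum fell at day 2 and stayed under its day 0 level at day 6. Most of it at day 0 was Prph, which averaged 6.39, 0.115 and 0.688 CPM on days 0, 2 and 6. Of 3 tested neuron markers, 1 was higher at day 6 than at day 0 (Syp, by 0.68, adjusted p = 0.0169, edgeR) and 2 were lower. The 7 Schwann cell and glia markers summed to 7.24 to 23.3 CPM before differentiation, 1.602 to 3.70 CPM on day 2 and 4.70 to 12.6 CPM on day 6, with Foxd3 at 0 throughout. The 8 skeletal muscle markers summed to 1.26 to 4.22, 0.260 to 1.04 and 5.88 to 11.8 CPM on days 0, 2 and 6, a dip and rise in the order of Sncg. Most of that sum was Acta1, the skeletal muscle actin gene, which rose by 3.77 on the log2 scale between days 2 and 6 (adjusted p = 3.23e-18, edgeR), while Myod1 was at 0 in every library and Ckm had at most 9 counts in total on any day. The 8 leukocyte markers summed to 6.64 to 13.1, 3.23 to 6.56 and 5.57 to 11.9 CPM, with Ptprc at 0 on days 2 and 6, and the 7 endothelial markers to at most 2.43 CPM in any library. Single markers of other lists also had the order of Sncg. Gfap (glia) averaged 0.330, 0.107 and 0.533 CPM on days 0, 2 and 6, and Cd68 (leukocytes) 6.93, 3.75 and 8.27 CPM. At day 6 against day 0, 1 of 4 tested glia markers was higher and 2 lower. Of 2 tested leukocyte markers, 1 was higher and 1 lower. The part of such cell types in the values of Sncg was not tested.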

How the data were processed

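Total RNA was sequenced in 36 libraries. Per the labels and the methods, the authors aligned paired-end reads with STAR 2.7.0d to GRCm38, and counted read pairs on exons of GENCODE M21 genes with featureCounts 1.6.2, without using the strand. They deposited these raw counts of 55536 genes, unnormalized, which were all found in the annotation. The study's own model used edgeR 3.24.3.

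Groups came from the labels. Genes were filtered with filterByExpr, scaled by TMM and tested with edgeR 4.0.16 (quasi-likelihood, earlier form, R 4.3.3) in a model with genotype and day plus clone, or clone, genotype and day for comparisons of clones. Genes under an adjusted p-value of 0.05 were called. CPM values used TMM-scaled library sizes, and log2 CPM a prior count of 2. Total counts of 11351078 to 24349263 limit precision where members had few counts, and exact counting intervals (95%) or a limit of 3 counts are given there.

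The members, gene lists and tests were chosen with earlier results of these data known. A planned test of Sncg and Dapk1 between days 0 and 2 is not used, since it shares the day 2 values that chose them. Named genes were the members, Rxra, overlapping genes, the 5 genes most like Sncg and Dapk1, and per list the 2 called genes that changed most between days 0 and 6 among those averaging log2 CPM 3 or more. One gene that this rule names is not reported here. Marker lists were summed. Same-numbered libraries of the genotypes deviated together in all 18 pairs (correlation 0.176 to 0.931, mean 0.710, over 9378 genes), so a replicate block was fitted as an alternative. No replicates were duplicates (chi-square per degree of freedom at least 12.0). Other alternatives were a model without clone, edgeR's robust and version 4 tests, DESeq2 1.42.0, RLE factors, library size alone, other filters, the compared days alone and libraries left out. The fits were also tested on simulated counts drawn independently for each library, without clone differences. That run does not cover clone effects, spread shared by same-numbered libraries or changes of genes with few counts. Promoter sequences came from RefSeq (GRCm38.p6). Counting did not use multi-mapping pairs, so genes with similar copies are uncertain. Protein sequences were not used here.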

Additional observations from a re-analysis of the deposited data

How the results depend on the processing

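With the libraries of days 0 and 2 alone Dapk1 failed the filter. Between those days no tested member was called, but 1 was with library size alone (Dapk3) and 1 without the filter (Dapk2). The call of Dapk3 between days 0 and 6 was lost with library size alone (0 members called), which moved the median of all genes alike (from -0.03 to -0.22) and left Dapk3 0.26 above it, and the clone difference of Sncg at day 2 was lost with the libraries of that day alone (0 called, since Sncg failed the filter). Dapk3 between days 0 and 2 turned to 0.0332 without the filter. With library size alone the share of higher genes among called genes was 33.64% instead of 48.85% between days 0 and 2 and 34.88% instead of 48.19% between days 0 and 6. The cause of the other changes was not tested.

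The replicate block raised the number of genes whose change over time differed between clones to 2248, 1369 and 2082 (days 0 to 2, 0 to 6 and 2 to 6), and called 3 genes for clone by genotype at day 0, where the lack of a filter called 5. It added Sncg for days 2 to 6, as did DESeq2 and no filter (1 member each), changed no other call of a member, and could not be fitted for a difference between clones on a day.

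With each clone and replicate number left out in turn, or the library with the lowest total, members called ranged from 0 to 1 for days 0 to 6, for clones at day 2, and for clone by time over days 0 to 2 and 2 to 6 (Sncg, without replicate 3 of clone 66, at adjusted p of 0.00489 and 0.00583). Genes called for clone by time ranged from 574 to 1315, 316 to 712 and 537 to 1398 in the order above, with the lowest of each without replicate 2 of clone 48. Replicate 3 of clone 66 (647 and 372 for days 0 to 2 and 0 to 6), replicate 1 of clone 48 (361 for days 0 to 6) and replicate 2 of clone 66 (415 for days 0 to 6 and 559 for days 2 to 6) also moved them by over 1.5 times. The values that changed sign passed the threshold under none of these omissions. For Dapk3 they were -0.0442 to 0.0385 between days 0 and 2. For RxraSA against RxraWT at day 2 they were -0.347 to 0.194 (Sncg), -0.132 to 0.336 (Dapk1) and -0.000336 to 0.0672 (Dapk3), and at day 6 -0.0277 to 0.0533 (Dapk1) and -0.0314 to 0.0647 (Dapk3). Their change over days 2 to 6 by genotype was -0.305 to 0.192 (Sncg) and -0.300 to 0.104 (Dapk1). Between clones they were -0.108 to 0.306 (Sncg) and -0.195 to 0.0732 (Dapk3) at day 0, and -0.240 to 0.0732 (Dapk3) at day 6. For clone by time they were -0.118 to 0.0565 (Dapk3, days 0 to 2), -0.0737 to 0.302 (Sncg) and -0.108 to 0.0974 (Dapk3, days 0 to 6) and -0.0246 to 0.0941 (Dapk3, days 2 to 6), and for clone by genotype of Sncg -0.376 to 0.0157 at day 0 and -1.37 to 1.19 at day 2.

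Depth limits Sncb, Dapk2, Dapk1 at days 0 and 2 and Sncg at day 2, which had at most 17 counts per library, so that changes between groups there are known only within the wide intervals given.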
